A study of Mus musculus with 15 samples.

Results

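The response of wild type mouse macrophages to lipopolysaccharide (LPS) was read from 8 of the 15 arrays of the series, the 4 arrays of LPS-treated and the 4 of untreated wild type cells, chosen by genotype and treatment in the sample titles. All cells were macrophages grown from C57BL/6 bone marrow in macrophage colony-stimulating factor, and treated cells had received LPS at 100 ng/ml for 4 h. The other 7 arrays, 4 untreated and 3 LPS-treated, were of Junb-fl/fl Lyz2-Cre+/+ macrophages on the same background, in which Cre recombinase made in myeloid cells from the lysozyme locus deletes a floxed Junb. They served to estimate the spread of each gene, and to set their response beside that of wild type cells. They also counted in the choice of the probes and genes tested and in the floor to which low signals were raised. Replicates were separate wells, with nothing in the labels on separate mice, so p-values measure the spread between wells. Junb, one of the proteins that pair to form AP-1, served as a check of the labels, since its probe rose above background on each of the 8 wild type arrays and on none of the 7 knockout ones. The test of the difference in response between the genotypes called 1427 genes (10.1%), but 130 after median scaling of the arrays, 567 in the authors' deposited value table and 822 with another background correction (normexp), and slide and genotype cannot be told apart.

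LPS is a cell wall component of Gram-negative bacteria that macrophages sense through Toll-like receptor 4. The adaptors of this receptor activate the transcription factors NF-kB, AP-1 and the interferon regulatory factors, and autocrine interferon then acts through STAT factors. Macrophages are known to respond with cytokines, and also with a change of metabolism, of surface receptors and of the regulators that limit the response, while many genes of the resting cell are shut down.

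Of 14192 genes tested, 4958 were higher (34.9%) and 3625 lower (25.5%) with LPS at an adjusted p of 0.05 (limma, Benjamini-Hochberg), 8583 genes (60.5%) in all. A rise of at least 2-fold was found for 2547 genes and a fall of that size for 1992, and the values of 7472 genes (52.6%) did not overlap between the groups of 4. Values below are signals divided by the 75th percentile of their array ("scaled signal"), given in the order of replicates 1 to 4. Fold changes are log2 differences of LPS minus untreated (4 arrays against 4) with their standard error (SE). The SE uses the spread of the gene over all arrays of the series, knockout arrays included. It can exceed the SE of the wild type arrays fitted alone, as for Nampt (1.34 against 0.12). Over all genes the median was 0.14, which moved to -0.12 with quantile normalisation and to -0.15 in the authors' value table. Rises made up 57.8% of the calls here, 42.0% and 43.0% there and 41.3% after median scaling, so the direction of a small change rests on the scaling. Under this scaling, quantile, median and normexp settings alike, 2502 genes were called higher and 3060 lower. All 8 arrays lay on 1 slide, with the untreated arrays in slide row 1 and the LPS arrays in slide row 2, so slide row and treatment cannot be told apart.

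**Figure D1:**
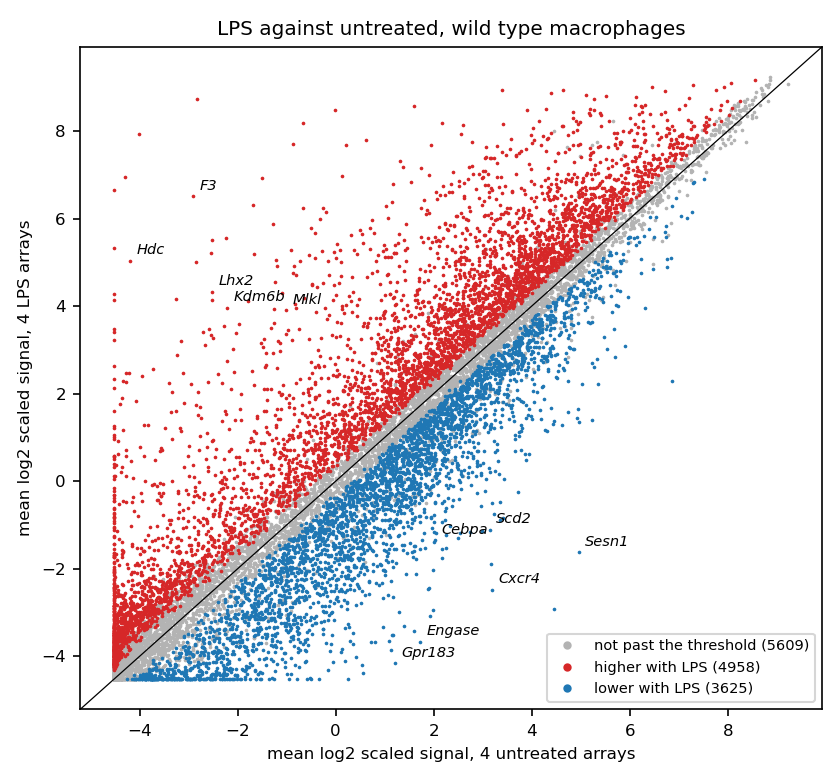
Mean log2 scaled signal of each of the 14192 genes on the 4 LPS arrays (vertical axis) against the 4 untreated arrays (horizontal axis), with the diagonal as a line. Red points are the 4958 genes higher and blue points the 3625 genes lower with LPS; F3 and Hdc lie far above the diagonal, and Sesn1 and Cxcr4 far below it.

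Genes whose mean signal reached 100000 in a group were kept out of the ranking of rises, Il6 among them, which rose the most of all genes measured on all 8 arrays. The ranking of the others began with F3, Hdc, Serpinb2 and Timp1. Only genes without overlap between the groups were ranked, here, among the falls and within the lists below. The separation of the groups in ranked genes was thus set by their choice. F3 encodes tissue factor, the cell surface trigger of blood coagulation. Its scaled signal was 0.109, 0.163, 0.144 and 0.123 on the untreated arrays and 90.04, 88.4, 92.5 and 95.2 on the LPS arrays. Every LPS array lay above every untreated array, with a log2 fold change of 9.43 ± 0.13, and another probe of the gene gave 5.22. Hdc encodes histidine decarboxylase, which makes histamine. Its scaled signal was 0.0582, 0.0416, 0.0377 and 0.0798 on the untreated arrays and 34.1, 34.9, 29.97 and 32.6 on the LPS arrays, a change of 9.23 ± 0.17, with untreated values at the lower end of what the arrays measure: those of replicates 2 and 3 were below the floor of 0.0436 and raised to it. Serpinb2, an inhibitor of plasminogen activators, read 0.2498, 0.456, 0.331 and 0.404 on the untreated arrays and 131, 112, 121 and 122 on the LPS arrays (log2 fold change 8.43 ± 0.49). Timp1, an inhibitor of matrix metalloproteinases, read 0.1402, 0.212, 0.174 and 0.178 on the untreated arrays and 48.5, 50.6, 43.9 and 39.7 on the LPS arrays (log2 fold change 8.03 ± 0.13). In these 4 genes every LPS array lay far above every untreated array.

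Further rises included secreted and membrane proteins. The secreted or adhesive proteins were the neutrophil-attracting chemokine Cxcl1 (7.99 ± 0.14), the adhesion molecule Vcam1 (7.86 ± 0.14), the cytokines Il10 (7.79 ± 0.13) and Il27 (7.74 ± 0.17), the interleukin 1 receptor antagonist Il1rn (6.83 ± 0.20) and the gap junction protein Gja1 (6.70 ± 0.16). Cxcl1 read 0.271, 0.308, 0.368 and 0.313 on the untreated arrays and 73.6, 86.3, 86.98 and 71.6 on the LPS arrays. Vcam1 read 0.118, 0.128, 0.129 and 0.191 on the untreated arrays and 34.99, 31.7, 33.6 and 29.2 on the LPS arrays, and another of its probes gave 5.98. Il10 read 0.211, 0.237, 0.185 and 0.227 on the untreated arrays and 45.3, 59.02, 45.8 and 40.6 on the LPS arrays. In each the LPS arrays lay in a narrow range beside the distance to the untreated ones. Il27 read 0.201, 0.147, 0.133 and 0.224 on the untreated arrays and 37.1, 45.9, 34.1 and 31.9 on the LPS arrays. Il1rn read 1.21, 1.15, 0.932 and 1.13 on the untreated arrays and 123, 154, 106 and 123 on the LPS arrays. Gja1 read 0.0473, 0.0563, 0.0631 and 0.0487 on the untreated arrays and 6.06, 5.17, 6.65 and 4.61 on the LPS arrays.

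The proteins of the cell's interior and membrane were Slfn4, a myeloid Schlafen gene (7.42 ± 0.11), Cish, an inhibitor of cytokine signalling (7.15 ± 0.14), the niacin and hydroxybutyrate receptor Hcar2 (6.92 ± 0.18), the cationic amino acid transporter Slc7a2 (6.87 ± 0.12) and Lhx2, a LIM homeobox transcription factor best known from brain, eye and hair follicle (6.85 ± 0.21). Slfn4 read 0.0978, 0.114, 0.107 and 0.103 on the untreated arrays and 19.7, 16.1, 18.7 and 17.8 on the LPS arrays. Cish read 0.354, 0.387, 0.455 and 0.475 on the untreated arrays and 65.9, 54.4, 64.8 and 52.2 on the LPS arrays. Hcar2 read 0.672, 0.733, 0.658 and 0.477 on the untreated arrays and 81.9, 90.2, 76.8 and 59.1 on the LPS arrays. None of these overlapped. Lhx2 read 0.199, 0.163, 0.124 and 0.227 on the untreated arrays and 25.7, 17.7, 19.7 and 18.3 on the LPS arrays. Every LPS value lay far above every untreated one.

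**Figure D2:**
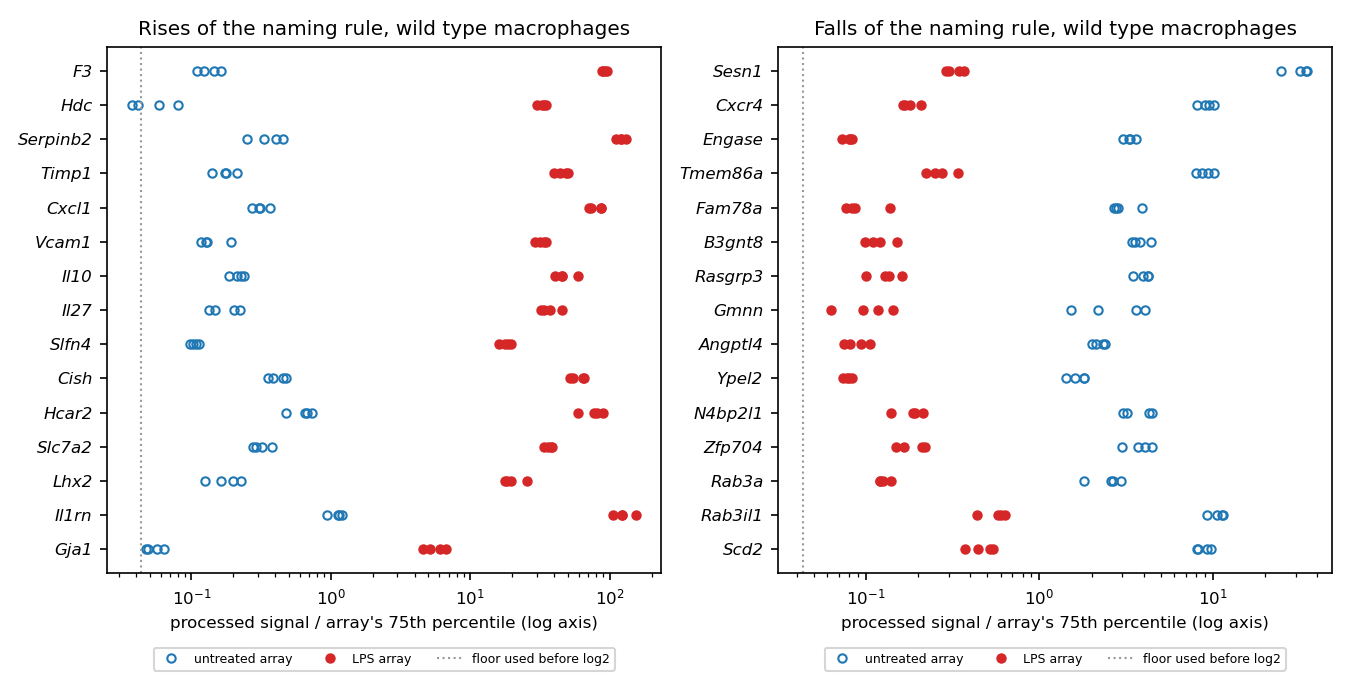
Scaled signal (log axis, in units of the 75th percentile of the array) of the 15 largest rises and 15 largest falls that the naming rule gave, each row a gene and each point an array. In every row the 4 LPS arrays lie apart from the 4 untreated ones, which the naming rule required. For Gmnn the untreated values spread from 1.52 to 4.09.

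A second class of rises started from no measurable level. The non-coding transcript U90926 did not rise well above background before treatment and read 105, 121, 88.4 and 91.2 on the LPS arrays, at least 4006-fold higher. By the same bound the granulocyte growth factor Csf3 was at least 1845-fold higher, Shisa3, known as an inhibitor of Wnt and fibroblast growth factor signalling, at least 815-fold, the vasoconstrictor peptide Edn1 at least 764-fold, the interleukin 36 cytokine listed as Il1f6 at least 430.4-fold and the proteoglycan-cleaving protease Adamts4 at least 289-fold. Csf3 read 36.97, 49.9, 37.9 and 35.9 with LPS, highest in replicate 2. Edn1 read 20.8, 19.5, 20.01 and 18.03, and Shisa3 read 19.6, 17.5, 18.7 and 14.8. These replicates were close together beside the size of the bounds. Il1f6 read 10.4, 9.74, 9.84 and 7.45, and Adamts4 read 7.47, 6.01, 6.65 and 5.07. In all, 159 genes were well above background on no untreated and on all 4 LPS arrays, and 191 the reverse. The bound sets the mean of the bright group against, per array, the higher of the lowest signal well above background and the signal of the dim probe.

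Some promoters of the named genes held known recognition letters of the LPS-activated factors. Windows of 300 bases, from 250 before to 50 after a RefSeq start site (GRCm38.p6), are shown for 4 risen and 2 fallen genes, with capitals for matches, on either strand, to NF-kB letters (GGGA followed by TTCC after any 2 bases), interferon response letters (GAAA repeated after any 2 bases), AP-1 letters TGANTCA, the TATA box TATAAA, the NRF1 letters (GCGC on each side of AT) and the CCAAT box CCAAT. They are Cxcl1 at chr5:90890995-90891294 (plus strand), F3 at chr3:121723287-121723586 (plus strand), Serpinb2, the first of its windows, at chr1:107511173-107511472 (plus strand), Edn1 at chr13:42301226-42301525 (plus strand), Cxcr4 at chr1:128592250-128592549 (minus strand) and Chek2 at chr5:110839733-110840032 (plus strand).
Cxcl1: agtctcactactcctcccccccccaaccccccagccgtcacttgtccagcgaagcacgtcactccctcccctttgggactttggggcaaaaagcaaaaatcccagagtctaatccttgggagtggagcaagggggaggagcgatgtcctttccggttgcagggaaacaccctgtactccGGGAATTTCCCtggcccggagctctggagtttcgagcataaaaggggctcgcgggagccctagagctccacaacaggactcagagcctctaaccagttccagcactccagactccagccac
F3: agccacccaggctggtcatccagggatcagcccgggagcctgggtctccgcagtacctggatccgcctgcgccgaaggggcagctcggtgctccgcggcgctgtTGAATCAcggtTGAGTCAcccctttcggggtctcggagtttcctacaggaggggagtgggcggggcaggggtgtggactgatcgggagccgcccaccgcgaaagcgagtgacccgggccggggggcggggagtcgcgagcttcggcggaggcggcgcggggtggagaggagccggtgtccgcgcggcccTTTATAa
Serpinb2: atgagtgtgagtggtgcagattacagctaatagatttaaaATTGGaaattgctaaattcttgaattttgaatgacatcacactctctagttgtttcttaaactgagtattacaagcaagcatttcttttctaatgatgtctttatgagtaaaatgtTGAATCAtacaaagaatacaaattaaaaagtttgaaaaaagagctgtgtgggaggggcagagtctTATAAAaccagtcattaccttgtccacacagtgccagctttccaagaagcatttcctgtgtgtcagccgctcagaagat
Edn1: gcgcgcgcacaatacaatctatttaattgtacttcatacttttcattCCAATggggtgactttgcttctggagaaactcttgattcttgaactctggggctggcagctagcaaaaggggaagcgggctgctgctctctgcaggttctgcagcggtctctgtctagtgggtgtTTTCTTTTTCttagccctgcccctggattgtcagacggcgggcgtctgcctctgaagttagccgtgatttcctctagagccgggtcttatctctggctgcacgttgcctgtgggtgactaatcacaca
Cxcr4: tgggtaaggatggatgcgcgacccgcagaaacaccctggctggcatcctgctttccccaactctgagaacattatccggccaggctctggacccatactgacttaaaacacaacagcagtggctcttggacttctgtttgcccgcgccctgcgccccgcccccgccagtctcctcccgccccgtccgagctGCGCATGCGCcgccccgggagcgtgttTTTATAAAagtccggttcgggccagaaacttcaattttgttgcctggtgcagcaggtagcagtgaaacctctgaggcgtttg
Chek2: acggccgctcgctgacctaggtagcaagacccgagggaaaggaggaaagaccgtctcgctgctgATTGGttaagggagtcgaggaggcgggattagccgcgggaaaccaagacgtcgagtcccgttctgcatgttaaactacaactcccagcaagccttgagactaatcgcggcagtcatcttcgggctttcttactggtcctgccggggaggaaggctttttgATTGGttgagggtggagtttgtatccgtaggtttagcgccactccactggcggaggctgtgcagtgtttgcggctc
Cxcl1 held the NF-kB letters in overlapping matches, F3 held the AP-1 letters at 2 places and a TATA box on the other strand, Serpinb2 held an AP-1 match and a TATA box, and Edn1 held the interferon response letters. The windows of the fallen genes Cxcr4 and Chek2 held none of these NF-kB, AP-1 or interferon response letters. That of Chek2 held a wider NF-kB pattern (GGGA followed by CC after any 4 bases), as did those of Cxcl1 and F3. The capitals do not mark this wider pattern. Cxcr4 had a TATA box and NRF1 letters and Chek2 had 2 CCAAT boxes. Windows of the risen genes Hdc, Timp1, Lhx2, Shisa3 and U90926, not shown, held none of the stricter NF-kB, AP-1 or interferon response letters. Those of Gja1 and Slfn4 and a window of Il1rn, also not shown, held AP-1 letters. The windows shown are thus examples, and not every named rise had such letters.

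The same letters were counted over the 200 largest rises (146 with a window), the 200 largest falls (152 with a window) and all genes tested (11363 with a window), as a description with no test. These NF-kB letters were in 6.85% of the rises, 0 of the 152 falls and 1.71% of all genes, and the wider pattern in 37.7% of the rises, 21.1% of the falls and 28.4% of all genes. The interferon response letters were in 13.01% of the rises, 0 of the 152 falls and 4.02% of all genes. AP-1 letters were in 23.3%, 5.26% and 7.13%, and the TATA box in 21.9%, 11.2% and 11.0%. The falls had more E-boxes (CACGTG, 15.8% against 11.0% of all genes), CCAAT boxes (52.6% against 42.8%) and NRF1 letters (4.61% against 2.02%, and 0 of the 146 rises). The GC content of the windows averaged 54.0% in the rises, 59.2% in the falls and 59.0% in all, and these motifs differ in GC content, which the counts do not take into account. A match says nothing about binding of the factor.

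**Figure D3:**
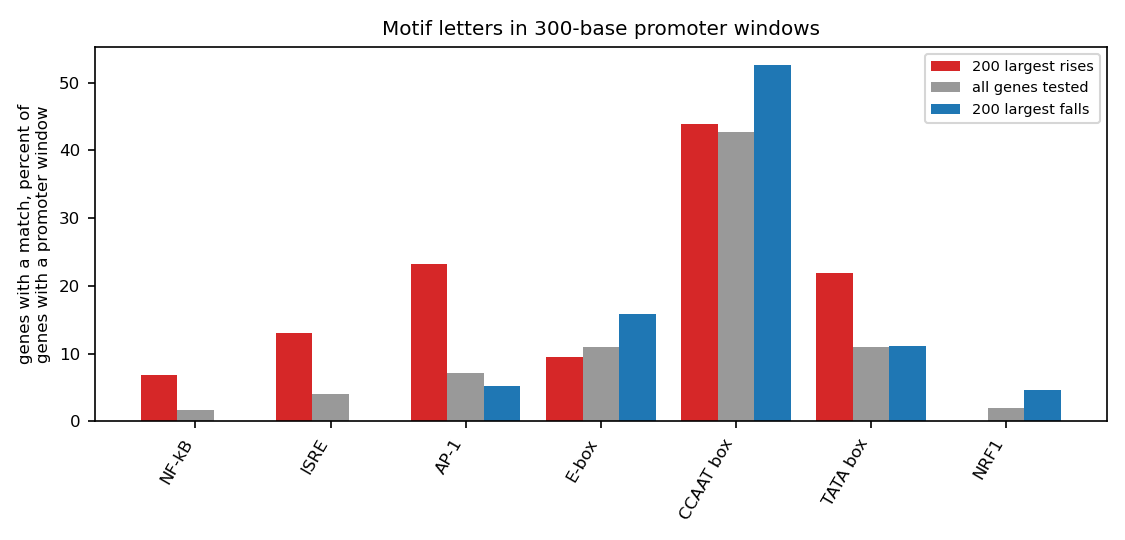
Percent of genes whose promoter window of 300 bases holds each motif, for the 200 largest rises (red), all genes tested (grey) and the 200 largest falls (blue). AP-1 letters stand at 23.3% of the rises and 7.13% of all genes, and the stricter NF-kB letters and the interferon response letters at 0 in the falls.

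Repression also reached large sizes. Sesn1 encodes a stress-inducible brake on the growth kinase mTORC1 and read 24.5, 34.6, 31.8 and 34.8 on the untreated arrays and 0.303, 0.346, 0.367 and 0.291 on the LPS arrays. All LPS values were below all untreated ones, with a log2 fold change of -6.58 ± 0.13. Cxcr4, the receptor of the chemokine Cxcl12 that holds cells in the bone marrow, read 8.09, 9.55, 9.01 and 10.2 on the untreated arrays and 0.179, 0.165, 0.208 and 0.168 on the LPS arrays (-5.68 ± 0.12). Engase, a cytosolic enzyme that trims N-glycans, read 3.59, 3.05, 3.33 and 3.295 on the untreated arrays and 0.0814, 0.0724, 0.08296 and 0.0797 on the LPS arrays (-5.39 ± 0.15, another probe -4.54). The groups of each gene were well apart, and the LPS arrays of Engase lay close to the lower end of measurement.

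Further falls reached membrane lipid, glycan and signalling genes. They were Tmem86a, a lysoplasmalogen hydrolase (-5.07 ± 0.17), Fam78a (-5.01 ± 0.20), the glycosyltransferase B3gnt8 (-5.00 ± 0.16), the Ras activator Rasgrp3 (-4.93 ± 0.18), the replication licensing inhibitor Gmnn (-4.71 ± 0.30), the lipoprotein lipase inhibitor Angptl4 (-4.65 ± 0.12), Ypel2 (-4.39 ± 0.12), N4bp2l1 (-4.36 ± 0.16), Zfp704 (-4.35 ± 0.15), the vesicle GTPase Rab3a (-4.28 ± 0.17) and its partner Rab3il1 (-4.25 ± 0.14). Both the GTPase and its exchange factor fell: Rab3a read 1.802, 2.58, 2.96 and 2.65 on the untreated arrays and 0.1404, 0.125, 0.121 and 0.121 on the LPS arrays, and Rab3il1 read 9.24, 11.3, 10.5 and 11.5 on the untreated arrays and 0.598, 0.575, 0.632 and 0.439 on the LPS arrays. Tmem86a read 8.64, 9.43, 8.03 and 10.2 on the untreated arrays and 0.274, 0.342, 0.251 and 0.221 on the LPS arrays. Every LPS value was again below every untreated one. Fam78a read 2.71, 2.78, 2.84 and 3.89 on the untreated arrays and 0.0765, 0.0829, 0.0869 and 0.138 on the LPS arrays. B3gnt8 read 4.38, 3.79, 3.43 and 3.58 on the untreated arrays and 0.0992, 0.1502, 0.1205 and 0.1095 on the LPS arrays. Rasgrp3 read 3.46, 3.98, 4.24 and 4.205 on the untreated arrays and 0.129, 0.101, 0.136 and 0.161 on the LPS arrays. Among these Fam78a was highest in untreated replicate 4. Gmnn read 1.52, 4.09, 3.61 and 2.19 on the untreated arrays and 0.09603, 0.118, 0.144 and 0.0634 on the LPS arrays. Angptl4 read 2.01, 2.34, 2.11 and 2.398 on the untreated arrays and 0.0812, 0.0748, 0.0937 and 0.106 on the LPS arrays. Untreated Gmnn varied more than untreated Angptl4. Ypel2 read 1.61, 1.798, 1.801 and 1.42 on the untreated arrays and 0.0735, 0.0781, 0.0834 and 0.0803 on the LPS arrays. N4bp2l1 read 3.04, 4.47, 4.29 and 3.204 on the untreated arrays and 0.187, 0.191, 0.214 and 0.139 on the LPS arrays. Zfp704 read 2.99, 4.08, 3.69 and 4.45 on the untreated arrays and 0.165, 0.149, 0.212 and 0.219 on the LPS arrays. The fall of Zfp704 is not settled, as its other probe gave -0.03. The desaturase Scd2, the last of the 15 falls, is described with the lipid genes.

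Among genes that fell below measurement, Susd3 was at least 37.2-fold lower, the peroxisomal fatty acid transporter Abcd2 at least 24.9-fold, the DNA damage checkpoint kinase Chek2 at least 23.8-fold, Bmyc, a relative of Myc, at least 21.5-fold, Mblac2 at least 19.7-fold and the zinc finger gene Zkscan4 at least 15.4-fold. Chek2 read 0.759, 0.7405, 0.704 and 0.6200 on the untreated arrays, which lay close together. Abcd2 read 0.653, 0.835, 0.847 and 0.842, lowest in replicate 1. Bmyc read 1.45, 1.15, 1.12 and 1.695, Mblac2 read 1.28, 1.07, 0.975 and 1.25 and Zkscan4 read 0.5005, 0.539, 0.554 and 0.481. Susd3 read 0.5797, 2.48, 2.396 and 0.584, so replicates 1 and 4 were well below replicates 2 and 3.

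Transcription factors changed in both directions, with a shift upwards in the signal-dependent families. Of 16 IRF and STAT genes, which carry interferon and cytokine signals, 13 rose (81.3%, against 34.9% of all genes). In this list 1 fell (6.25%, against 25.5%), and the median was 1.44. Irf7, the amplifier of type I interferon, rose by 3.55 ± 0.21, Stat5a by 3.17 ± 0.10 and Stat3 by 3.14 ± 0.21, while Stat4 read 2.32, 1.09, 1.46 and 0.539 on the untreated arrays and 0.267, 0.165, 0.317 and 0.573 on the LPS arrays (-1.99 ± 0.43), with overlapping groups. Of 29 further zinc finger and ETS regulators, 20 rose (69.0%) and 4 fell (13.8%), with a median of 1.16. Gfi1, a repressor of blood lineage choice, read 0.401, 0.4498, 0.332 and 0.515 on the untreated arrays and 14.5, 11.2, 13.5 and 10.4 on the LPS arrays (4.87 ± 0.19). Nfil3, a repressor that competes with the clock output factors, rose by 4.22 ± 0.12 and the ETS factor Ets2 by 3.54 ± 0.14. Fli1, an ETS factor of megakaryocytes and endothelium, fell by 1.98 ± 0.16. Both medians were above 0.5 under quantile, median and normexp settings and in the value table, where 6 of 12 IRF and STAT genes rose and 4 fell.

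In the bHLH, ID and MYC network, 16 of 28 genes rose (57.1%, against 34.9% of all genes) and 9 fell (32.1%, against 25.5%). Ahr, the receptor for dioxins and tryptophan metabolites, read 0.345, 0.603, 0.566 and 0.874 on the untreated arrays and 18.5, 15.7, 18.6 and 13.5 on the LPS arrays (4.86 ± 0.22), whereas Ahrr, its repressor and target, fell by 2.95 ± 0.13 (another probe -1.56). The MYC antagonist Mxd1 rose by 4.82 ± 0.13 (another probe 4.25) and its relative Mxd4 fell by 1.90 ± 0.16 (another probe -3.88). Lyl1, a factor of blood stem cells, read 24.8, 27.8, 29.7 and 42.00 on the untreated arrays and 3.06, 3.09, 2.76 and 2.08 on the LPS arrays (-3.49 ± 0.17). The naming rule took up to 3 rises and up to 3 falls from each list. The opposite directions of these named genes were thus set by their choice and are not a result about the network. In each of these genes the groups did not overlap, which their ranking required.

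A list of macrophage lineage factors also held regulators of other blood cells or of wider expression, among them Gata2, Myb and Nfe2l2. Of its 22 genes, 16 rose (72.7%, against 34.9% of all genes) and 4 fell (18.2%, against 25.5%). Under quantile normalisation 9 rose and 5 fell. Tfec, a macrophage relative of the lysosomal regulators Mitf and Tfeb, read 3.64, 4.299, 3.64 and 3.69 on the untreated arrays and 41.3, 44.7, 38.3 and 36.5 on the LPS arrays (3.40 ± 0.12), while Tfeb itself fell below measurement on all LPS arrays, at least 14.01-fold. Cebpa, which starts the myeloid programme, read 4.55, 3.76, 3.43 and 4.805 on the untreated arrays and 0.347, 0.542, 0.3796 and 0.335 on the LPS arrays (-3.38 ± 0.16). Mef2c fell by 1.16 ± 0.15, while Maf rose by 1.66 ± 0.16 and Spic, the factor of iron-recycling macrophages, by 1.40 ± 0.15. The probe of Mef2a gave 4.30 ± 0.64 and another probe 0.12, so its rise, counted among the 16, is unsettled. Of 13 Kruppel-like factors 6 rose (46.2%) and 3 fell (23.1%). Klf8 (4.11 ± 0.19), Klf4 (2.02 ± 0.20) and Klf7 (1.94 ± 0.20) led the rises. Against them stood Klf11 (-1.25 ± 0.17), Klf2, a brake on endothelial and monocyte activation (-1.06 ± 0.16), and Klf10 (-0.96 ± 0.19).

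Of 21 nuclear receptors 7 rose (33.3%, against 34.9% of all genes) and 6 fell (28.6%, against 25.5%), shares close to those of all genes. The orphan receptor Nr4a1, an immediate-early gene, read 1.77, 2.23, 2.58 and 3.63 on the untreated arrays and 56.9, 49.8, 50.8 and 42.8 on the LPS arrays (4.34 ± 0.19), Nr4a2 rose by 2.32 ± 0.13 and the glucocorticoid receptor Nr3c1 by 1.37 ± 0.16 (another probe 3.27). Pparg, which drives lipid storage genes, fell by 1.25 ± 0.13 and Nr2f6 by 1.42 ± 0.14. Of 13 circadian clock genes, 7 rose (53.8%) and 4 fell (30.8%), with 5 and 6 under quantile normalisation. The related PAR bZIP output factors Dbp (-3.18 ± 0.14) and Tef (-3.53 ± 0.81) fell and their repressor Nfil3 rose, as did the clock repressors Ciart (2.77 ± 0.24) and Cry2 (1.47 ± 0.12). Dbp read 2.81, 2.81, 2.83 and 3.75 on the untreated arrays and 0.376, 0.391, 0.3200 and 0.262 on the LPS arrays, with no overlap. Per2 was at least 3.07-fold lower.

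Of 62 G protein-coupled receptors measured, 30 rose (48.4%, against 34.9% of all genes), 21 fell (33.9%, against 25.5%) and 11 did not pass. Both adenosine receptors that raise cyclic AMP rose. Adora2b read 2.07, 2.79, 2.94 and 4.15 on the untreated arrays and 126, 113, 107 and 109 on the LPS arrays (5.29 ± 0.18, another probe 5.65), and Adora2a read 0.671, 1.09, 1.18 and 1.03 on the untreated arrays and 26.1, 23.5, 24.4 and 16.8 on the LPS arrays (4.53 ± 0.17). The lysophosphatidic acid receptor Lpar1 rose by 4.41 ± 0.18, whereas its relative Lpar6 fell by 3.31 ± 0.16. Cxcr4, Gpr146 (-3.97 ± 0.13), Gpr162 (-3.80 ± 0.14) and the proton-sensing Gpr65 (-3.16 ± 0.14) fell. Gpr146 read 10.3, 14.8, 14.2 and 14.2 on the untreated arrays and 0.928, 0.773, 0.813 and 0.884 on the LPS arrays. The oxysterol receptor Gpr183 fell by 5.37 ± 0.20 and was well above background on 2 of 4 LPS arrays. Its ligand is made from the product of Ch25h, cholesterol 25-hydroxylase, which read 1.18, 0.577, 0.707 and 0.509 on the untreated arrays and 58.4, 59.4, 50.6 and 51.5 on the LPS arrays (6.28 ± 0.21). The complement receptor C5ar1 rose by 1.27 ± 0.14 and C3ar1 fell by 0.60 ± 0.12.

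Of 43 cytokine receptor chains 28 rose (65.1%, against 34.9% of all genes) and 7 fell (16.3%, against 25.5%), with 22 and 10 under quantile normalisation. Il4ra, the shared chain of interleukin 4 and 13 receptors, read 1.19, 1.31, 1.31 and 1.81 on the untreated arrays and 18.7, 20.4, 17.5 and 15.2 on the LPS arrays (3.69 ± 0.15). Il17ra rose by 2.74 ± 0.16. Il15ra, which presents interleukin 15, read 0.428, 4.32, 3.31 and 4.101 on the untreated arrays and 159.8, 172, 117 and 45.7 on the LPS arrays (5.62 ± 0.63), with untreated replicate 1 and LPS replicate 4 below the others of their group (another probe 5.88). Without both it was 5.25 ± 0.22. The receptor of transforming growth factor beta fell in both chains, Tgfbr1 by 2.35 ± 0.21 (another probe -1.51) and Tgfbr2 by 1.23 ± 0.15 (another probe -0.43), and Il6ra fell by 1.53 ± 0.34.

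Lectins, scavenger receptors and paired immune receptors changed in both directions. Of 21 C-type lectins 9 rose (42.9%) and 5 fell (23.8%). Of 23 scavenger and efferocytosis receptors 9 rose (39.1%) and 8 fell (34.8%). Of 38 paired and inhibitory receptors 19 rose (50%) and 8 fell (21.1%). Over all genes the shares were 34.9% and 25.5%. The activation marker Cd69 rose by 5.08 ± 0.14, the oxidised lipoprotein receptor Olr1 by 3.90 ± 0.26, the phosphatidylserine receptor Timd4 by 2.65 ± 0.16 and Slamf7, a self-ligand of macrophages and lymphocytes, by 3.96 ± 0.12. Slamf1, which also binds bacteria, was at least 90.8-fold higher. The high density lipoprotein receptor Scarb1 fell by 1.20 ± 0.16 and the collagen-binding inhibitory receptor Lair1 by 1.77 ± 0.24. Cd300lb, an activating receptor for lipids of dying cells, read 8.16, 10.5, 9.21 and 9.88 on the untreated arrays and 0.579, 0.686, 0.648 and 0.483 on the LPS arrays (-3.98 ± 0.14), with no overlap.

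For glucose uptake, glycolysis and the pentose phosphate pathway, 18 of 43 genes rose (41.9%, against 34.9% of all genes) and 12 fell (27.9%, against 25.5%). The median of 0.25 turned to -0.19 under quantile normalisation (14 rose, 19 fell). The hexokinases Hk2 (2.04 ± 0.13) and Hk3 (1.80 ± 0.16) and the phosphofructokinase Pfkp (3.01 ± 0.15) rose. Pfkp read 2.83, 2.02, 2.002 and 2.27 on the untreated arrays and 17.4, 20.4, 15.5 and 19.6 on the LPS arrays, and another of its probes gave 1.88. The glucose transporters Slc2a3 (-2.32 ± 0.14) and Slc2a8 (-1.21 ± 0.13) fell, as did Pfkfb4 (-1.95 ± 0.13), a fructose bisphosphate regulator. Besides, 2 kinases fell below measurement, Pdk2 (a brake on pyruvate dehydrogenase, at least 11.1-fold lower) and Shpk (sedoheptulose kinase, at least 5.295-fold lower). Of 34 genes of the TCA cycle, citrate and itaconate, 8 rose and 8 fell (23.5% each), with 4 and 24 under quantile normalisation. Idh1, the cytosolic isocitrate dehydrogenase, read 24.1, 29.7, 27.1 and 22.9 on the untreated arrays and 7.43, 9.07, 8.04 and 6.29 on the LPS arrays (-1.76 ± 0.14) and pyruvate carboxylase Pcx fell by 1.10 ± 0.11, both without overlap.

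Amino acid genes held some of the steepest rises. Of 27 genes of arginine, proline and polyamine metabolism 13 rose (48.1%, against 34.9% of all genes) and 6 fell (22.2%, against 25.5%). Slc7a2 read 0.289, 0.379, 0.3204 and 0.277 on the untreated arrays and 36.4, 38.4, 33.99 and 37.8 on the LPS arrays, and argininosuccinate synthase Ass1, which regenerates arginine, rose by 3.16 ± 0.17 and the transporter Slc7a1 by 2.84 ± 0.25, while polyamine oxidase Paox fell by 1.97 ± 0.20 and Spr, which makes a cofactor of nitric oxide synthase, by 1.54 ± 0.15. Of 33 genes of amino acid, tryptophan, histidine and NAD metabolism, 18 rose (54.5%) and 7 fell (21.2%). The phenylalanine oxidase Il4i1 read 0.573, 0.634, 0.548 and 0.656 on the untreated arrays and 39.2, 31.4, 31.9 and 28.7 on the LPS arrays (5.76 ± 0.68), the NAD-consuming enzyme Cd38 rose by 5.39 ± 0.19 and the cystine importer Slc7a11 by 5.22 ± 0.16. Glul, glutamine synthetase, fell by 1.76 ± 0.15 and the branched-chain enzymes Bckdha and Bcat2 by 1.96 ± 0.15 and 1.23 ± 0.19.

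In serine, folate and nucleotide synthesis, 12 of 33 genes rose (36.4%, against 34.9% of all genes) and 15 fell (45.5%, against 25.5%). The serine enzyme Psat1 read 1.36, 1.99, 1.905 and 1.56 on the untreated arrays and 31.96, 25.9, 30.2 and 21.2 on the LPS arrays (4.00 ± 0.19), and the folate enzyme Mthfd2 rose by 2.04 ± 0.13, while the folate enzyme Mthfd1 fell by 1.68 ± 0.60, a call that was lost without LPS replicate 1 or 4. Thymidine kinase Tk1 read 5.397, 5.85, 6.11 and 5.98 on the untreated arrays and 0.455, 0.449, 0.475 and 0.387 on the LPS arrays (-3.73 ± 0.10), and the pyrimidine enzyme Dhodh fell by 1.49 ± 0.13. The uridine phosphorylase Upp1 rose by 8.00 ± 0.10, with 1 of 4 untreated arrays above background (another probe 5.63).

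In lipid metabolism 18 of 50 fatty acid genes fell (36%, against 25.5% of all genes) and 10 rose (20%, against 34.9%). In the sterol list 13 of 35 fell (37.1%) and 12 rose (34.3%), with 20 and 6 under quantile normalisation. Dhcr7, which makes the last step to cholesterol, fell by 2.62 ± 0.15, mevalonate decarboxylase Mvd by 2.05 ± 0.17 and the cholesterol esterifying enzyme Soat1 by 1.81 ± 0.12. Scd2, a stearoyl-CoA desaturase, read 8.204, 8.11, 9.29 and 9.75 on the untreated arrays and 0.442, 0.516, 0.543 and 0.373 on the LPS arrays (-4.25 ± 0.13). The desaturase Fads1 read 10.03, 6.97, 6.796 and 9.62 on the untreated arrays and 0.7996, 0.987, 0.821 and 0.854 on the LPS arrays (-3.25 ± 0.16), and the lysosomal phospholipase Pla2g15 fell by 2.59 ± 0.16. Against them, the triglyceride enzyme Dgat2 rose by 4.22 ± 0.22, the acyltransferase Gpat3 by 2.59 ± 0.20 and the arachidonate-releasing phospholipase Pla2g4a by 3.82 ± 0.17.

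For redox and iron handling 14 of 40 genes rose (35%, against 34.9% of all genes) and 10 fell (25%, against 25.5%). Under quantile normalisation 9 rose and 20 fell. The zinc and iron importer Slc39a14 read 2.13, 1.89, 2.04 and 2.29 on the untreated arrays and 34.5, 32.7, 36.7 and 35.1 on the LPS arrays (4.06 ± 0.10), while the iron exporter ferroportin, Slc40a1, read 2.16, 3.04, 3.26 and 3.36 on the untreated arrays and 1.01, 1.02, 1.14 and 0.864 on the LPS arrays (-1.53 ± 0.14). Catalase, Cat, fell by 2.01 ± 0.21 (another probe -0.54). Of 45 lysosomal genes, 7 rose (15.6%), 6 fell (13.3%) and 32 did not pass. The cystatin Cst7 was the exception in size, at 4.33 ± 0.14.

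Genes of the FoxO, p53 and nutrient stress programme split by member. Of 34 genes 15 fell (44.1%, against 25.5% of all genes) and 11 rose (32.4%, against 34.9%). The 3 sestrins, brakes on mTORC1, moved apart. Sesn1 fell as given above, Sesn2 read 0.5203, 0.3897, 0.446 and 0.474 on the untreated arrays and 1.67, 1.79, 1.56 and 1.37 on the LPS arrays (1.80 ± 0.18), and Sesn3 read 0.05699, 0.08501, 0.111 and 0.104 on the untreated arrays and 1.09, 0.742, 1.02 and 0.591 on the LPS arrays (3.27 ± 0.28). Ddit4, another brake on mTORC1, rose by 4.94 ± 0.15, and the arrestin-like Arrdc4 by 3.48 ± 0.18 (another probe 2.01). The p53 targets Phlda3 and Zmat3 fell by 2.60 ± 0.13 and 2.24 ± 0.17.

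DNA repair had the largest share of falls among the lists. Of 60 genes measured, 38 fell (63.3%, against 25.5% of all genes) and 6 rose, with a median of -0.94 against 0.14 over all genes. The count of falls lay between 34 and 37 under quantile, median and normexp settings and in the value table (35 of 56 there), and between 35 and 38 when any 1 wild type array was left out. Among mismatch repair genes, Msh6, which helps to find the mismatch, read 3.93, 5.36, 5.36 and 5.52 on the untreated arrays and 1.103, 0.9702, 1.27 and 0.9200 on the LPS arrays (-2.24 ± 0.14), with no overlap, and Pms1 fell by 3.23 ± 0.21. Mlh3 was at least 10.8-fold lower. Msh3 fell by 0.46 ± 0.18, with overlapping groups and other probes from -0.18 to 0.39, so its direction is unsettled.

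Base excision and single-strand break repair had 11 falls and 2 rises among 18 genes, among them Nthl1, an oxidised base glycosylase (-2.90 ± 0.17), and Parp1, the break sensor (-2.08 ± 0.17), and against them the thymine glycosylase Tdg, which read 0.385, 0.433, 0.429 and 0.367 on the untreated arrays and 1.16, 1.45, 1.19 and 1.15 on the LPS arrays (1.61 ± 0.12, other probes 0.96 to 1.05). Nucleotide excision repair and translesion synthesis had 7 falls and no rise among 10, led by the damage sensor Xpc (-2.71 ± 0.40). Homologous recombination and the Fanconi anaemia pathway had 9 falls and 3 rises among 17. Xrcc3 was at least 13.8-fold lower, and Fanca read 0.103, 0.1405, 0.1700 and 0.0965 on the untreated arrays and 0.674, 0.446, 0.603 and 0.4398 on the LPS arrays (2.10 ± 0.19). End joining and checkpoint kinases had 4 falls and 1 rise among 8, including Chek2. Over all genes 25.5% fell and 34.9% rose, with a median of 0.14. Medians were -0.85 for base excision and single-strand break repair and -0.93 for nucleotide excision repair and translesion synthesis. They were -0.85 for homologous recombination and the Fanconi anaemia pathway and -0.29 for end joining and checkpoint kinases. These groups are small, and the division of the list by role was made after its values were seen.

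**Figure D4:**
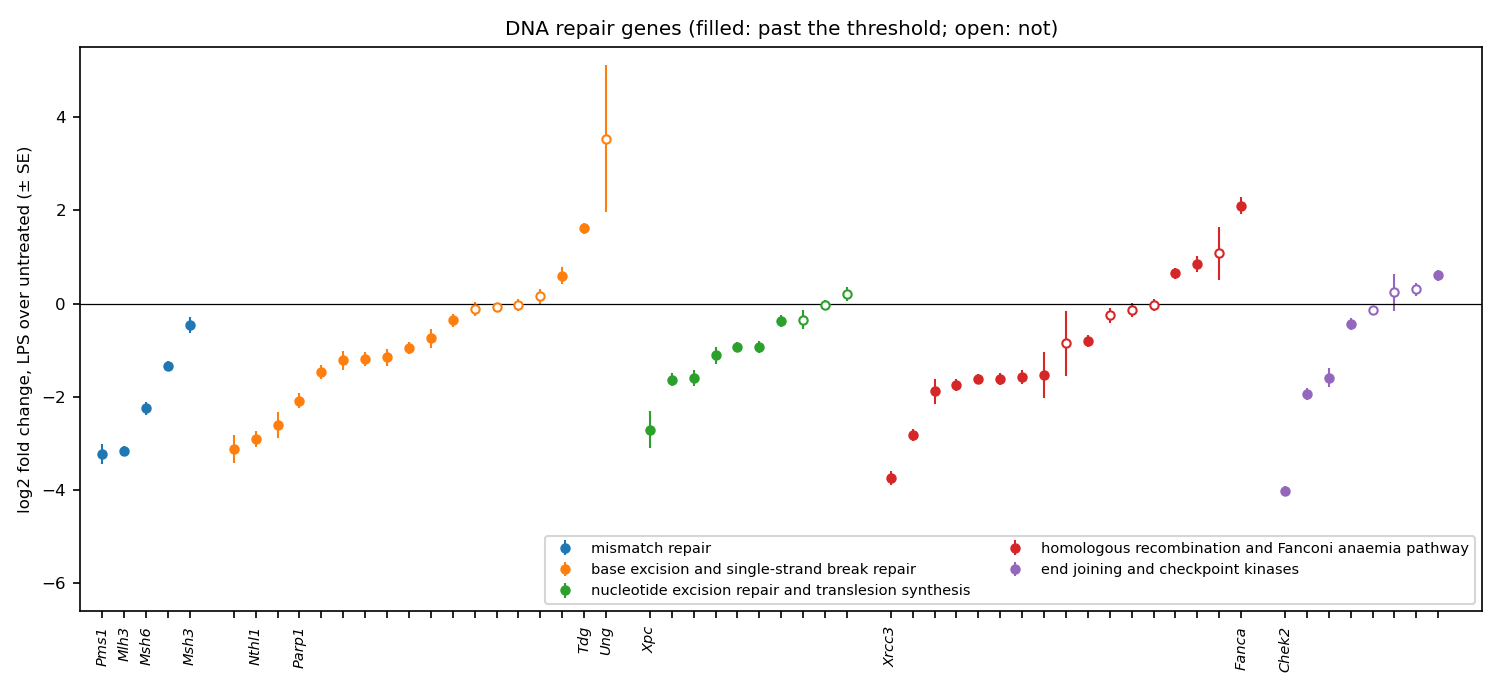
Log2 fold change, LPS over untreated, with its SE, of DNA repair genes, grouped by repair pathway, with the genes named in the text labelled; filled points passed the threshold and open points did not. Msh6 and Pms1 lie below -2, and Ung, at 3.54 ± 1.57, has the widest error bar.

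Inhibitors of signalling and of mRNA stability formed the list with the most rises after the IRF and STAT genes, 33 of 42 (78.6%, against 34.9% of all genes), with 3 falls and a median of 1.64; under quantile normalisation 32 rose and 5 fell. Socs1, which blocks JAK kinases, read 0.662, 0.768, 0.7499 and 1.28 on the untreated arrays and 77.2, 77.5, 80.4 and 67.5 on the LPS arrays (6.50 ± 0.18). The MAP kinase phosphatase Dusp16 read 2.56, 2.56, 2.54 and 3.17 on the untreated arrays and 60.04, 57.1, 55.7 and 61.7 on the LPS arrays (4.44 ± 0.11), while Dusp3 and Dusp7 fell by 1.38 ± 0.17 and 0.54 ± 0.17 (another probe of Dusp3 -0.65). The ribonuclease Zc3h12a, which cleaves cytokine mRNAs, rose by 3.55 ± 0.26.

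Of 37 cell death genes 25 rose (67.6%, against 34.9% of all genes) and 5 fell (13.5%, against 25.5%), with 22 and 9 under quantile normalisation. Mlkl, the executioner of necroptosis, read 0.223, 0.637, 0.534 and 0.7997 on the untreated arrays and 20.9, 18.2, 13.2 and 9.92 on the LPS arrays (4.91 ± 0.35), and the caspase 8 inhibitor Cflar rose by 3.66 ± 0.11. The initiator caspase Casp9 fell by 1.86 ± 0.16 and the p53 target Bbc3 by 0.57 ± 0.14.

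Regulators of the cytoskeleton and of second messengers included opposite extremes. The atypical small GTPases Rhou and Rnd1 rose: Rhou read 0.115, 0.209, 0.204 and 0.111 on the untreated arrays and 10.3, 10.3, 12.2 and 9.98 on the LPS arrays (6.12 ± 0.19), and Rnd1 read 0.477, 0.388, 0.395 and 0.489 on the untreated arrays and 28.02, 37.4, 29.2 and 26.5 on the LPS arrays (6.11 ± 0.14, another probe 5.73). Inpp5d, the inositol phosphatase SHIP1 that restrains phosphoinositide 3-kinase, read 17.4, 21.2, 22.8 and 25.7 on the untreated arrays and 2.73, 2.31, 2.74 and 2.11 on the LPS arrays (-3.13 ± 0.14). Rgs2, a brake on G protein signals, fell by 3.13 ± 0.14 (another probe -3.79). Of 22 phosphodiesterases 8 rose (36.4%, against 34.9% of all genes) and 5 fell (22.7%, against 25.5%). The cyclic AMP enzymes Pde4b and Pde8b changed by 2.36 ± 0.18 and -2.51 ± 0.18.

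Chromatin and protein turnover families showed a few large single changes. Of 41 chromodomain, lysine demethylase and methyltransferase genes 14 rose (34.1%, against 34.9% of all genes) and 13 fell (31.7%, against 25.5%). The H3K27 demethylase Kdm6b read 0.261, 0.169, 0.197 and 0.249 on the untreated arrays and 13.7, 17.4, 15.5 and 16.05 on the LPS arrays (6.18 ± 0.17), and the H4K20 methyltransferase Kmt5c read 8.42, 8.36, 8.33 and 11.6 on the untreated arrays and 0.694, 0.8297, 0.682 and 0.624 on the LPS arrays (-3.69 ± 0.13). Setd7 fell by 3.02 ± 0.19. Of 44 proteasome genes matched by symbol 30 rose (68.2%) and 1 fell (2.27%), but 16 rose and 14 fell under quantile normalisation. The immunoproteasome subunits Psmb9 (2.45 ± 0.15) and Psmb8 (2.20 ± 0.15) rose. Of 19 aminoacyl-tRNA synthetases 12 rose (63.2%), led by Wars (2.04 ± 0.22, another probe 2.97), and 1 fell (5.26%). The deubiquitinase Usp2, a circadian output gene, fell by 3.09 ± 0.18.

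Of 344 zinc finger proteins matched by symbol, 168 fell (48.8%, against 25.5% of all genes) and 68 rose (19.8%, against 34.9%), with a median of -0.40. Between 142 and 181 fell and between 26 and 70 rose over the 4 other scalings. Zfp273 read 1.02, 1.64, 1.57 and 1.57 on the untreated arrays and 0.164, 0.139, 0.139 and 0.146 on the LPS arrays (-3.28 ± 0.15), and Zfp566 fell by 3.20 ± 0.22, while Zfp800 rose by 3.59 ± 0.17 and Zfp811 by 3.77 ± 0.43.

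**Figure D5:**
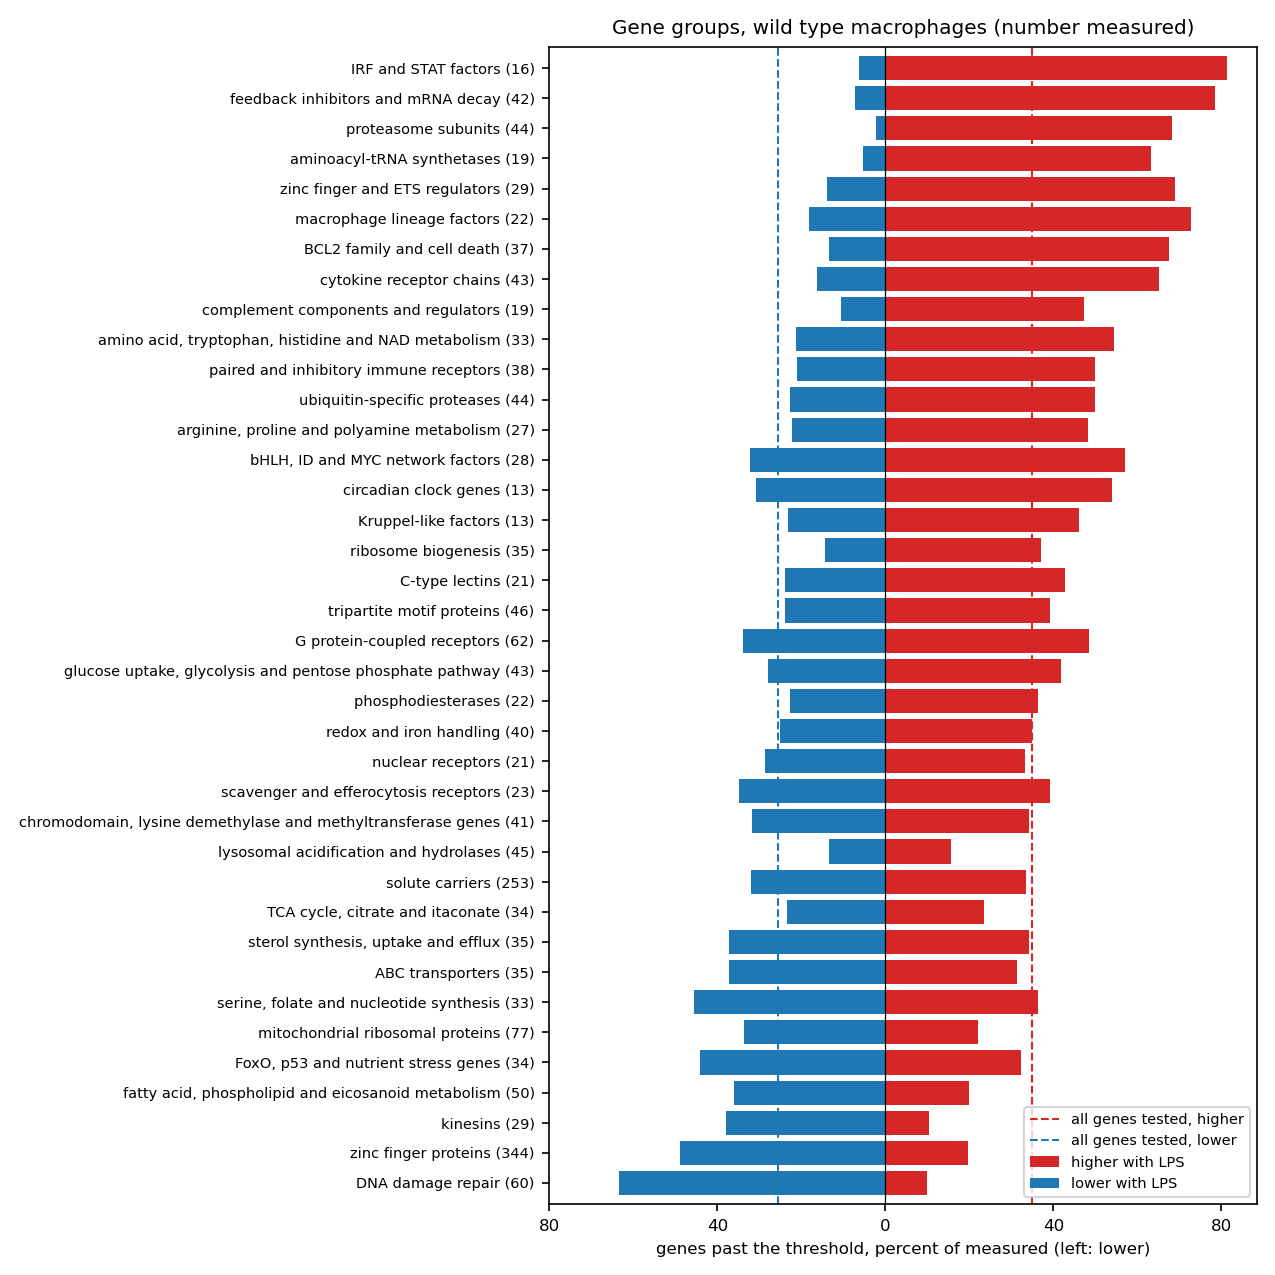
Percent of the measured genes of each list shown that were higher (red, to the right) or lower (blue, to the left) with LPS, ordered by the difference; dashed lines mark the 34.9% and 25.5% of all genes tested. DNA repair has the most falls, at 63.3%, and the IRF and STAT factors the most rises, at 81.3%.

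Some genes with separate groups did not pass in the fit over all arrays. For 64 genes the groups were at least 2-fold apart without overlap, yet the adjusted p of the fit over all 15 arrays was above 0.05; all 64 passed when the 8 wild type arrays were fitted alone, and 63 passed without untreated knockout replicate 3. These fits and the genes named here were chosen after the values were seen. Nampt, which makes NAD from nicotinamide, read 25.6, 34.5, 32.6 and 35.4 on the untreated arrays and 174, 182, 158 and 179 on the LPS arrays (2.45 ± 1.34, limma adjusted p = 0.133, and 1.785e-06 with the wild type arrays alone). The prostaglandin E synthase Ptges read 38.7, 36.4, 37.3 and 51.2 on the untreated arrays and 222, 226, 189 and 222 on the LPS arrays (2.40 ± 1.21, another probe 4.49), and the oxysterol receptor Nr1h3 (liver X receptor alpha) read 31.4, 38.3, 36.95 and 44.96 on the untreated arrays and 15.2, 14.1, 14.1 and 11.2 on the LPS arrays (-1.47 ± 1.22). On untreated knockout replicate 3 these 3 genes read 0.163, 0.240 and 0.233.

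Markers of other cell types were checked beside these lists. Of 10 measured macrophage markers 3 rose (30%, against 34.9% of all genes) and 2 fell (20%, against 25.5%). Summed scaled signals of these markers were 1370 to 1608 untreated and 1607 to 2436 with LPS. Of 6 measured neutrophil markers 3 rose (50%), and the sum over the 6 went from 10.6 to 16.8 untreated to 52.4 to 71.1 with LPS. S100a8 rose by 2.74 ± 0.15 and Camp by 2.44 ± 0.16, but Ngp, Mpo, Retnlg and Cxcr2 did not pass the filter on dim probes. Of 7 stromal and endothelial markers 5 rose (71.4%), Pdgfrb by 3.91 ± 0.15, with sums of 2.73 to 4.86 untreated and 6.94 to 10.65 with LPS. None of the 6 mast cell and basophil markers passed the filter. B cell markers summed to 4.88 to 26.5 untreated and 3.25 to 23.1 with LPS, with Ms4a1 and Pax5 not kept, dendritic cell markers to 151 to 214 and 135 to 320.4, and T and NK cell and erythroid markers to less than 0.47 on every array. The part of other cells in the changes above was not tested, and fewer cells of a type cannot be told apart from less RNA per cell.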

How the data were processed

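Gene expression was measured on 15 one-colour Agilent arrays, 8 of them wild type. The intensity values are processed signals that the authors deposited, written by Agilent Feature Extraction 10.7.3.1, per the file headers, with background subtracted. A deposited value table, used as an alternative, holds log2 values of the authors with medians of 6.25 to 6.27 per array; each of its 15 columns correlated best with its own array (lowest Spearman 0.968), and its further scaling is not given in the sources used here. Signals were divided by the 75th percentile of each array (482 to 1103 on wild type arrays), values under 0.0436 were raised to it, and log2 was taken. Outlier spots were left out (133 to 238 per wild type array). A probe was kept if well above background on 3 or more arrays of 1 group, which left 32507 of 55681 probes. Of all probes 26582 were given 1 RefSeq symbol by accession, and the kept probe with the highest mean stood for its gene. Between 52.7% and 63.2% of probes were well above background on a wild type array, and the number of arrays limits the precision; wild type arrays of a group correlated at 0.966 to 0.997. Group means were fitted over all 15 arrays with limma 3.58.1 (R 4.3.3), with Benjamini-Hochberg adjustment at 0.05. On simulated data with 50 genes per size, 38 were recovered at a log2 change of 1 or -1, 46 at 2 and 44 at -2, with 7 false calls among 14192 genes.

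An exact permutation test of 4 arrays against 4 cannot go below p = 0.0286, the value of each gene whose groups did not overlap. Alternatives were quantile normalisation, median scaling, normexp background, the values of the authors, other filters, another floor, outlier spots kept, the mean of a gene's probes, the wild type arrays alone, the replicate number as a block and each array left out. The members and lists were chosen with earlier results of these data known. Genes named were the 15 largest rises and falls measured on all 8 arrays without overlap, under a mean signal of 100000 and with probes of 1 sign, the 6 largest bounds in each direction, up to 3 per direction in each list, and Junb. Chosen after their values were seen were Il6, Gpr65, Gpr183, Lpar1, Lpar6, Mef2a, Stat4, Tfeb, Per2, Slamf1, Pdk2, Shpk, Sesn2, Upp1, Zc3h12a, the repair genes Mlh3, Msh3, Msh6, Parp1, Ung, Xpc and Xrcc3, the markers S100a8, Camp and Pdgfrb, and the 3 genes with a wide spread. Promoter windows are from RefSeq for GRCm38.p6, and 15 patterns were searched. Some genes and lists are not reported here.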

Additional observations from a re-analysis of the deposited data

Results flagged for a closer look

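Among 90 groups of 4 arrays of the named genes, 5 had 1 array apart from the other 3, where chance gives about 1 in 20. Fam78a stood at a log2 scaled signal of 1.96 in untreated replicate 4, against 1.44 to 1.51 in the others. Csf3 stood at 5.64 in LPS replicate 2 (5.17 to 5.25 in the others) and Junb at 3.71 in the same array (3.08 to 3.17). Abcd2 stood at -0.61 in untreated replicate 1 (-0.26 to -0.24), and Mblac2 at -3.71 in LPS replicate 4 (-4.30 to -4.22).

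The log2 response to LPS differed between Junb knockout and wild type cells for 12 of the 30 rises and falls that the naming rule gave (mean signal under 100000, no overlap, probes of 1 sign), by limma's test of the difference, against 10.1% of all genes; the 30 genes were chosen for their wild type response, and slide and genotype cannot be told apart. The difference, knockout minus wild type, was -4.10 for Il10, -1.95 for Hcar2, -1.87 for F3, -1.62 for Timp1, -1.22 for Il27, -1.12 for Slfn4, -0.94 for Cish and -0.78 for Slc7a2, and 0.84 for Vcam1. Among the falls it was 0.95 for Cxcr4, 1.12 for Ypel2 and -0.82 for Angptl4.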

How the results depend on the processing

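The number of genes higher with LPS was 2533 after median scaling and 2796 in the value table, where 1447 were at least 2-fold higher; the number lower stayed within 1.5 times under every setting run. A difference of responses was called for 130 genes after median scaling and 822 with normexp. Leaving out 1 wild type array gave 4567 to 5115 genes higher, 3435 to 3771 lower, 2467 to 2764 and 1951 to 2049 at least 2-fold higher and lower, and 1060 to 1932 differences. Replicate numbers did not pair the arrays (correlations of deviations -0.53, 0.07, 0.56 and -0.28; 1 of 4 correlated best with its own number). With the replicate block, 4892 genes were higher and 3549 lower, 2546 and 1988 by 2-fold, and 1117 differed in response. Cs, citrate synthase, reversed from 0.48 to -0.31 under quantile normalisation and -0.18 in the value table. Of 265 named genes, 258 kept direction and call after median scaling, 261 with normexp, 263 under quantile normalisation and 207 of 225 in the value table, where Olr1, Slamf7, Slc7a1, Paox, Psmb8, Pde4b and Dusp3 no longer passed; Dusp7 did not pass with normexp. Counts of rises in the lists moved most with scaling. The causes were not tested. Settings added after seeing the data gave 4902 higher and 3709 lower genes without untreated replicate 1 and LPS replicate 4, and 5073 and 3680 without untreated knockout replicate 3.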

Other observations

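Untreated replicate 1 and LPS replicate 4 of the wild type cells stood apart in the same genes. In untreated replicate 1, 60 genes were at least 4-fold below the other 3 arrays of the group, in LPS replicate 4, 44 genes, and 27 genes were in both sets. At least 4-fold above were 167 and 304 genes, 101 of them in both. The other 15 pairs of an untreated and an LPS array shared 0 low and 0 to 3 high genes. The probes of the 27 low genes lay over array rows 14 to 379 of 384. All 27 were called changed by LPS, 25 of them as rises of 3.33 to 5.52 on the log2 scale. Without both arrays the log2 fold change was 4.99 for the proteasome activator subunit Psme3, 4.38 for the transcription factor Mef2a and 4.23 for Zfp791. Another probe, where kept, could differ, as for Mef2a at 0.12, Usf2 at -2.40 and the costimulatory receptor Tnfrsf9 at 4.07. The pattern was found in these data, and its cause was not tested.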
